A study of Neurospora crassa with 12 samples.

Results

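Between the first sign of polar growth and the first hyphal branch of *Neurospora crassa*, genes for cell wall proteins, germling fusion, G protein signalling, and peroxisomes were more often upregulated than downregulated, while genes for amino acid synthesis, ribosomal proteins, the proteasome, and DNA repair were more often downregulated. In the most abundant of 5 equal groups of genes, 61.1% were downregulated as well. The comparison rests on 6 of the 12 RNA sequencing libraries of conidia germinating on potato dextrose agar (PDA), 3 collected at 360 min, when the first branch appeared, and 3 collected at 120 min, when polar growth was first seen. The libraries were chosen by these labelled times alone, and no measured value entered the choice. All 6 came from the *mat A* wild-type strain FGSC2489, a laboratory strain with no added allele or agent, whose macroconidia (large asexual spores) were spread on cellophane over PDA and kept at 25°C under continuous white light. A library holds pooled fungal tissue collected from the plate surface once most spores had reached the stage, so it is a mixture of spores around that stage. The other 6 libraries, from fresh spores at 15 min and from germ tubes at 240 min, entered the estimate of the spread and are given below as levels. The study calls the 3 libraries of a stage biological replicates, each from several plates taken in 1 collection, and p-values measure the spread between such collections.

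A germinating conidium first swells, then selects 1 site on its surface and sends out a germ tube, which grows at its tip into a hypha. Tip growth needs a steady supply of vesicles carried along the cytoskeleton and enzymes that build and loosen chitin and glucan in the wall. Older cell compartments are closed off by septa, whose pores are plugged by Woronin bodies after injury, and neighbouring germlings and hyphae of this fungus sense each other and fuse. Branching sets up a new growing tip beside or behind the first.

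The 360 min libraries held 63287111, 51555784, and 63039263 counts, and the 120 min libraries held 69471364, 71739697, and 80635774. Levels are given as CPM, which here means counts per 1e6 counts of the library after scaling with edgeR's TMM factors, which lay between 1.116 and 1.174 at 360 min and between 0.9506 and 0.9831 at 120 min. A gene with no count could still have had up to 3 counts, or 0.0372 to 0.0582 CPM, and this limit covers counting error only. The third 360 min library stood apart, with 11.7% of its counts in ribosomal RNA genes, against 2.08 and 2.51% in the other 360 min libraries and 2.70 to 3.39% in the 120 min libraries, and counts without it are given beside several lists. The stage labels were checked against marker genes. The hydrophobin gene *eas* (5.07 CPM at 360 min and 9.7 CPM at 120 min on average) and the conidiation gene *con-6* (7.36 and 16.2 CPM) were far below their 4060 and 396 CPM at 15 min, *con-8*, *con-13*, *poi-2*, *asd-3*, and *fmf-1* averaged under 0.5 CPM at both stages, and the hyphal genes *hex-1*, *act*, *chs-1*, and *cot-1* averaged at least 99.2 CPM at both stages. Other markers are given by log2 fold change, 360 over 120 min, with the test described below. *con-10* (0.25), *fl* (-0.32), and *asd-1* (0.46) did not pass, *csp-1* (-0.33) was lower, and the conidial *ccg-1* (0.76) and sexual *app* (1.00) were higher. The hyphal genes *chs-3* (1.00), *chs-4* (0.34), and *spa2* (0.82) were higher at 360 min, and *chs-3* and *spa2* averaged less than 99.2 CPM at 120 min.

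A filter on low counts left 8118 genes for the test, of which 4603 (56.7%) differed between the stages by edgeR's quasi-likelihood test with a Benjamini-Hochberg adjusted p under 0.05. Upregulated at 360 min were 2403 genes (29.6% of those tested) and downregulated were 2200 (27.1%), and the median log2 fold change over all tested genes was 0.02. Most changes were small. The median size of a called change was 1.38-fold, and 569 genes (12.4% of the called genes) changed at least 2-fold. Large changes were mostly rises, with 451 genes at least 2-fold higher and 118 at least 2-fold lower, and 137 at least 4-fold higher and 22 at least 4-fold lower. In 4409 of the called genes (95.8%) the 3 libraries of one stage all lay above the 3 of the other. The same held for 4944 (60.9%) of all tested genes. RNA sequencing gives shares of an RNA pool, so that fewer cells of a kind and less RNA per cell cannot be told apart. The split by direction depended on the scaling: with libraries scaled by their totals alone, 3834 genes were higher and 999 lower, and the median over all tested genes was 0.26. This raised the whole table by about the same amount, and the medians of the 42 gene lists relative to that of all tested genes moved by at most 0.07. Directions below are therefore relative to the bulk of the genes. Without the third 360 min library the cell wall protein list held 11 genes higher and 1 lower, the fusion list 17 higher and none lower, the peroxisome list 14 higher and 1 lower, and the amino acid list 2 higher and 42 lower, close to the counts with all libraries given below.

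The direction of change went with the expression level. Tested genes were split by mean level into 5 groups of equal size. In the highest group, at 84.9 CPM and more, 17.2% rose and 61.1% fell, with a median log2 fold change of -0.27. In the second-lowest group, between 1.68 and 13.1 CPM, 40.5% rose and 15.5% fell, with a median of 0.21. The gene lists below were not matched by level, so the 61.1% of the highest group is given beside lists of abundant genes. Shares of lower groups are given beside some other lists. Genes called higher at 360 min made up 14, 15.2, and 14.5% of the CPM of the 360 min libraries and 8.62, 9, and 8.72% of that of the 120 min libraries. Genes called lower made up 65.2, 63.1, and 55.4% at 360 min and 71.9, 72, and 72.3% at 120 min, and the lowest of these values belongs to the library rich in ribosomal RNA. The calls were spread over the genome, with 25.0 to 31.1% of the tested genes of a nuclear chromosome called higher and 22.9 to 31.2% called lower. Gene length differed little, with a median of 2440 bases for genes called higher, 2384 for genes called lower, and 2330 for all tested genes.

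**Figure D1:**
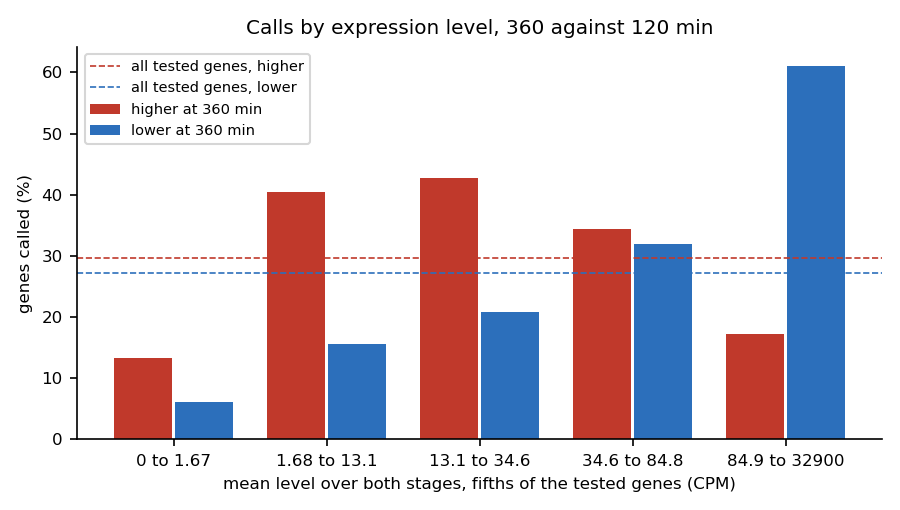
Bars show the percent of tested genes called higher (red) or lower (blue) at 360 min in 5 equal groups of tested genes by mean CPM over both stages, and dashed lines show the same percents over all tested genes. In the highest group 61.1% fell and 17.2% rose, while in the second-lowest group 40.5% rose and 15.5% fell.

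Among genes that carry a symbol, the largest rise was that of *chit-1* (NCU02184, chromosome I, 937786 to 943577), which encodes a chitinase, an enzyme that cuts the chitin of the wall. It had 34.4, 45.6, and 35.7 CPM at 360 min, against 1.04, 1.6, and 1.49 CPM at 120 min. The stages lay far apart, with a log2 fold change of 4.80 ± 0.17 (SE, edgeR adjusted p = 3.2e-09). *gh16-1* (NCU01353, chromosome V, 3747192 to 3750386), a glycoside hydrolase, had 43.7, 48.0, and 39.9 CPM at 360 min, against 5.41, 6.23, and 5.78 CPM at 120 min (log2 fold change 2.92 ± 0.10). The 3 libraries of each stage were close to each other for this gene. *inv*, the invertase that splits sucrose, rose at a lower level (log2 fold change 1.38), as did *gh28-1* (2.70), at 1.53 CPM at 360 min and 0.235 CPM at 120 min. Of the 33 tested glycoside hydrolases outside the starch and cellulose groups, 15 (45.5%, against 29.6% over all tested genes) were upregulated and 1, *gh18-6* (-0.51), was downregulated, with a median of 0.20. In the second-lowest group by level 40.5% of genes rose, with a median of 0.21. The list was not matched by level, and its 38 members summed to 406 to 429 CPM at 360 min and 260 to 266 CPM at 120 min. Of 11 tested starch-active enzymes 3 (27.3%) rose and 1 fell, and of 28 tested enzymes active on cellulose and hemicellulose 5 (17.9%) rose and 2 fell, shares no higher than the 29.6% and 27.1% over all tested genes. The glucoamylase gene *gla-1*, although the medium holds potato starch, averaged 7.71 CPM at 360 min and 5.97 CPM at 120 min (log2 fold change 0.37), and none of the 4 tested sugar transporters was called.

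Of the 19 tested genes for anchored (*acw*) and non-anchored (*ncw*) cell wall proteins, 11 were upregulated (against 29.6% over all tested genes), 1, *ncw-4* (-0.37), was downregulated, and 7 were not called, with a median log2 fold change of 0.53. *acw-9* (NCU06185, chromosome III, 1817033 to 1819468), whose product is attached to the wall, had 1020, 977, and 767 CPM at 360 min, against 196, 225, and 289 CPM at 120 min. Its log2 fold change was 1.96 ± 0.13, the third-largest gain in CPM of any called gene. *ncw-1* (NCU05137) had 23.8, 19.4, and 22.7 CPM at 360 min, against 1.3, 2.84, and 4.19 CPM at 120 min. *acw-10* (NCU03013) had 33.1, 25.2, and 34.5 CPM at 360 min, against 2.76, 4.61, and 7.62 CPM at 120 min. For both genes the stages did not overlap, though the 120 min libraries differed from each other about 3-fold. Their log2 fold changes were 2.97 ± 0.30 and 2.62 ± 0.26, and *acw-4* rose by 2.29. Others, such as *acw-3* (-0.03) and *acw-8* (0.06), were not called. Among 10 genes for chitin and glucan synthesis and for glucan-remodelling transferases, 6 (60.0%, against 29.6% over all tested genes) were upregulated and 1, *gel-1* (-0.59), downregulated. The chitin synthase gene *chs-3* (NCU04251) had 96.7, 108, and 114 CPM at 360 min, against 50.7, 55.1, and 54.2 CPM at 120 min (log2 fold change 1.00 ± 0.06), and the transferase gene *gel-3* rose by 0.70. The chitin synthase genes *chs-1*, *chs-4*, and *chs-5* rose by 0.27, 0.34, and 0.23, and *chs-6* stayed near 0.25 CPM at both stages.

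**Figure D2:**
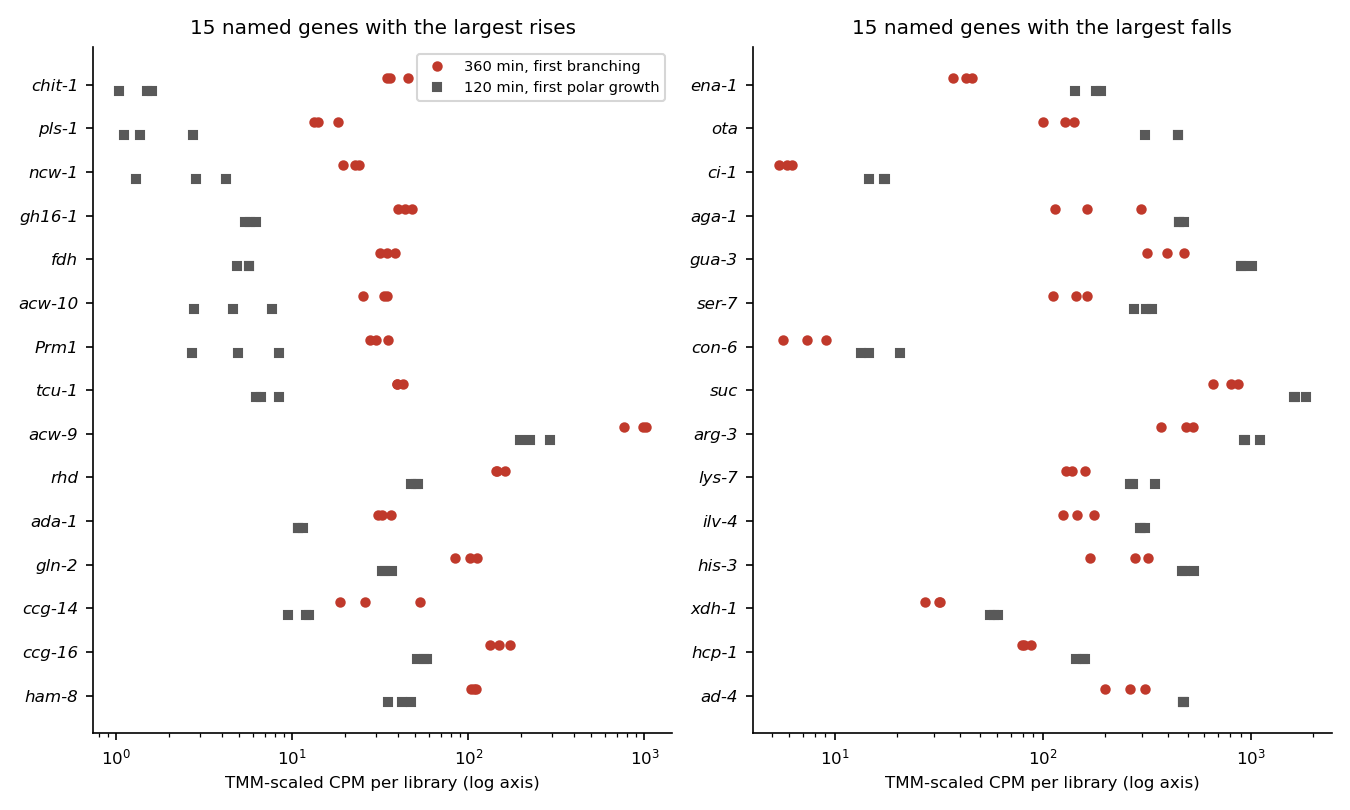
Each row shows 1 gene with its TMM-scaled CPM in the 3 libraries of 360 min (red circles) and the 3 libraries of 120 min (grey squares) on a log axis, for the 15 symbol-bearing genes with the largest rises (left) and falls (right) among called genes with at least 10 CPM in the higher stage and no overlap. The stages do not overlap for any of these genes, a condition of the choice, and *aga-1* and *ccg-14* show the widest spread among the 360 min libraries.

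Genes of the growing tip changed by smaller factors. The polarisome scaffold gene *spa2* (NCU03115) had 51.7, 57.2, and 57.5 CPM at 360 min, against 31.2, 29.8, and 33.0 CPM at 120 min (log2 fold change 0.82 ± 0.06), and the stages did not overlap. The formin gene *bni1*, whose product nucleates actin cables, rose by 0.26. *krev-1*, a Ras-type GTPase gene, had 31.9, 31.6, and 33.4 CPM at 360 min, against 53.5, 54.1, and 50.5 CPM at 120 min (-0.71 ± 0.05). Of 9 tested members of the NDR kinase group, which is required for continued tip extension, 5 (55.6%, against 29.6% over all tested genes) were upregulated and none downregulated. The kinase gene *cot-1* (NCU07296) had 156, 171, and 160 CPM at 360 min, against 109, 110, and 115 CPM at 120 min (0.54 ± 0.05), and its partner gene *mob-2a* rose by 1.01 ± 0.23, or by 0.69 without the third 360 min library. Actin (*act*, 0.16) and beta-tubulin (*Bml*, -0.01) were not called, but the actin-binding tropomyosin gene *tpm* (0.75) and coronin gene *crn* (0.45) rose. Of 14 motor and dynactin genes 5 rose (35.7%, near the 29.6% over all tested genes), or 7 without the third 360 min library, led by *ro-11* (0.68) and *nudf-1* (0.67), both regulators of dynein, and none fell.

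Most genes for communication and fusion between germlings rose. Of 22 tested genes, 16 (72.7%) were upregulated and none downregulated, with a median log2 fold change of 0.45, against 29.6% upregulated over all tested genes. *Prm1* (NCU09337, chromosome II, 4147012 to 4150433), which acts in the merging of plasma membranes, had 35, 27.7, and 29.8 CPM at 360 min, against 2.69, 4.91, and 8.40 CPM at 120 min. The 120 min libraries differed about 3-fold among themselves and still lay below all 360 min libraries (log2 fold change 2.52 ± 0.29, edgeR adjusted p = 9.8e-06). The gene of the transcription factor ADV-1, *adv-1* (NCU07392), had 129, 116, and 128 CPM at 360 min, against 46.0, 50.4, and 61.6 CPM at 120 min (1.24 ± 0.09). *pp-1*, whose product is the transcription factor at the end of the MAK-2 kinase cascade, rose by 0.86 ± 0.05, and *ham-8*, required for hyphal fusion, by 1.37 ± 0.09. In the MAP kinase cascade of cell wall integrity, the kinase kinase gene *mek-1* had 166, 156, and 159 CPM at 360 min, against 64.2, 71.2, and 83.0 CPM at 120 min (1.14 ± 0.07), the kinase gene *mak-1* rose by 0.62, and the upstream gene *mik-1* (0.16) was not called. In the MAK-2 cascade *nrc-1* (0.42) and *mek-2* (0.39) rose. The kinase gene *mak-2* itself had 196, 132, and 134 CPM at 360 min, against 113, 71.7, and 118 CPM at 120 min, and missed the threshold (0.61 ± 0.26, edgeR adjusted p = 0.06). *so*, whose product pulses at the tips of communicating cells, rose by 0.74. The NADPH oxidase gene *nox-2*, placed in this list by its symbol, rose by 1.17, and whether it acts in fusion was not tested.

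Of 16 tested genes of G protein and cAMP signalling, 10 were upregulated (62.5%, against 29.6% over all tested genes), none was downregulated, and 6 were not called, with a median of 0.33. The receptor gene *gpr-3* had 2.56, 2.69, and 3.95 CPM at 360 min, against 0.423, 0.695, and 0.535 CPM at 120 min, a log2 fold change of 2.47 ± 0.24 at a low level. A second receptor gene, *gpr-2*, rose by 1.56. The beta and gamma subunit genes *gnb-1* and *gng-1* each rose by 0.46, the adenylate cyclase gene *cr-1* by 0.43, and the kinase subunit gene *pkac-2* by 1.09, while *gna-1* (0.05) and *pkac-1* (0.01) were not called.

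**Figure D3:**
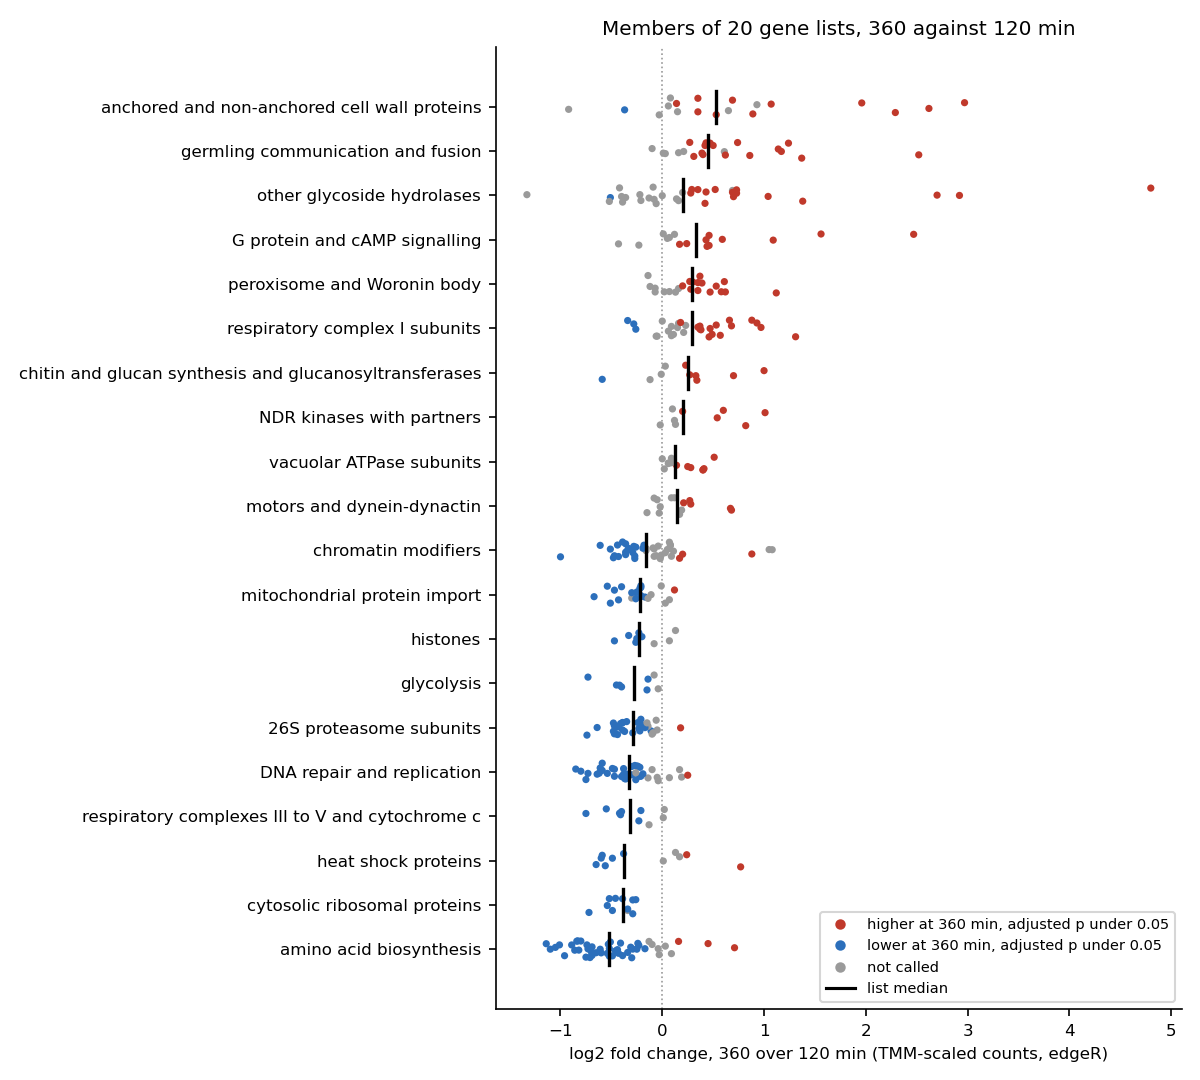
Each point is the log2 fold change, 360 over 120 min, of 1 tested member of 20 of the 42 gene lists, in red or blue where edgeR's adjusted p was under 0.05 and in grey where it was not, and the black bar is the median of the list. Cell wall proteins (median 0.53) and fusion genes (0.45) stand at the high end and amino acid biosynthesis (-0.52) at the low end, with single genes such as *chit-1* (4.80) far from their list.

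The largest named fall was that of *ena-1* (NCU05046, chromosome VI, 3938154 to 3943089), which encodes a sodium-exporting ATPase. It had 45.9, 42.9, and 37.1 CPM at 360 min, against 190, 181, and 143 CPM at 120 min, and the log2 fold change was -2.03 ± 0.10 (edgeR adjusted p = 2.5e-08). Its level was 411 CPM at 15 min, so the fall continued over the course. Of 10 tested cation transport genes of the plasma membrane and Golgi 4 rose and 2 fell, the second being *ph7* (-0.91), which averaged 0.503 CPM at 360 min and 0.944 CPM at 120 min. *nca-2*, a calcium ATPase gene, had 103, 108, and 106 CPM at 360 min, against 49.6, 47.2, and 52.9 CPM at 120 min (1.09 ± 0.05). *pma-1*, the plasma membrane proton pump that energizes nutrient uptake, had 4760, 5040, and 4590 CPM at 360 min, against 3620, 3300, and 3690 CPM at 120 min, the largest gain in CPM of any called gene (0.44 ± 0.06). Of 14 tested subunits of the vacuolar proton pump 7 were upregulated (9 without the third 360 min library) and none downregulated, led by *vma-3* (0.51), and the copper transporter gene *tcu-1* rose by 2.51 ± 0.17.

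Amino acid biosynthesis fell across pathways. Of 51 tested genes named for an amino acid requirement, 42 (82.4%) were downregulated and 3 upregulated, with a median log2 fold change of -0.52. Over all tested genes 27.1% fell, and in the highest group by level 61.1% fell, with a median of -0.27. The summed level of the 51 genes was 7770 to 9720 CPM at 360 min (median 9180), against 12900 to 14100 CPM at 120 min (median 13000). *arg-3* (NCU02677, chromosome I, 3170235 to 3175788), a subunit of the carbamoyl phosphate synthetase for arginine, had 529, 490, and 371 CPM at 360 min, against 1110, 939, and 933 CPM at 120 min (-1.10 ± 0.11). *ser-7* (NCU01429) had 163, 145, and 112 CPM at 360 min, against 335, 314, and 274 CPM at 120 min (-1.14 ± 0.11). *ilv-4* (-1.01) and *lys-7* (-1.05) were about as strongly reduced, and the histidine gene *his-3* had 320, 277, and 169 CPM at 360 min, against 534, 468, and 482 CPM at 120 min (-0.96 ± 0.16, and -0.74 without the third 360 min library). For each of these genes the stages did not overlap. The aromatic genes *aro-6* (-0.89) and *aro-1* (-0.83), the homoserine dehydrogenase gene *hom-1* (-0.74), and *leu-4* (-0.84) fell as well. The exceptions were *met-8*, with 456, 511, and 469 CPM at 360 min, against 368, 338, and 345 CPM at 120 min (0.45), *ilv-5* (0.71), and *arg-13* (0.16). With library totals alone 31 of the 51 were lower and 7 higher.

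The ornithine transaminase gene *ota* (NCU00194) had 141, 128, and 99.9 CPM at 360 min, against 310, 445, and 448 CPM at 120 min (-1.70 ± 0.15). The arginase gene *aga-1* had 164, 296, and 115 CPM at 360 min, against 453, 452, and 479 CPM at 120 min (-1.27 ± 0.33), a wide spread at 360 min. *suc* (NCU02505), the pyruvate carboxylase that refills the citric acid cycle, had 872, 802, and 659 CPM at 360 min, against 1840, 1620, and 1640 CPM at 120 min (-1.13 ± 0.09). Its level at 15 min was 532 CPM, so that the highest mean was at 120 min. In nitrogen assimilation 7 of 11 tested genes rose (63.6%, against 29.6% over all tested genes) and 3 fell (27.3%, against 27.1%). Their summed level was 1290 to 1400 CPM at 360 min (median 1360), against 1400 to 1490 CPM at 120 min (median 1440). The 2 glutamine synthetase genes moved apart, with 83.5, 102, and 112 CPM of *gln-2* at 360 min, against 32.1, 33.4, and 36.7 CPM at 120 min (1.54 ± 0.10), and 750, 699, and 635 CPM of *gln-1* at 360 min, against 1010, 990, and 925 CPM at 120 min (-0.49 ± 0.06). The glutamate dehydrogenase gene *am* rose by 0.54.

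The translation machinery fell by modest factors at high levels. Of 11 tested genes for cytosolic ribosomal proteins 10 (90.9%) were downregulated and none upregulated, with a median log2 fold change of -0.39. Over all tested genes 27.1% fell, and in the highest group by level 61.1% fell, with a median of -0.27. Library totals alone left 3 of them lower, with a median of -0.15. *tef-1* (NCU02003, chromosome I, 1711539 to 1714654), elongation factor 1-alpha, had 30500, 27900, and 22900 CPM at 360 min, against 40500, 38400, and 37200 CPM at 120 min (-0.51 ± 0.10), the largest loss in CPM of any called gene. The gene of elongation factor EF-2, *cot-3* (NCU07700), had 6330, 5640, and 3750 CPM at 360 min, against 9030, 8150, and 8720 CPM at 120 min (-0.72 ± 0.14). The ribosomal protein gene *un-16* had 2540, 2100, and 2310 CPM at 360 min, against 3780, 3650, and 4050 CPM at 120 min (-0.72 ± 0.07). In all 3 the stages did not overlap. The poly(A)-binding protein gene *pabp* fell by 0.63 on the log2 scale.

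Protein quality control fell in part. Of 29 tested proteasome subunits 22 (75.9%) were downregulated, led by *rpt-3* (-0.74) and *rpn-2* (-0.64), and 1, *rpn-12* (0.18), was upregulated, with a median of -0.29. Over all tested genes 27.1% fell, and in the highest group by level 61.1% fell, with a median of -0.27. Without the third 360 min library 27 were lower and none higher, and with library totals alone 10 were lower and 4 higher. Of 11 tested heat shock genes 6 (54.5%) fell and 2 (18.2%) rose, against 27.1% and 29.6% over all tested genes and 61.1% and 17.2% in the highest group by level. *hsp70-2* (NCU02075) had 6670, 6080, and 5900 CPM at 360 min, against 9540, 9070, and 9430 CPM at 120 min (-0.59 ± 0.07), and the mitochondrial chaperonin gene *hsp60* fell by 0.56. The chaperone of the endoplasmic reticulum, *grp78* (NCU03982), moved the other way, with 605, 621, and 600 CPM at 360 min, against 357, 359, and 352 CPM at 120 min (0.77 ± 0.04). With library totals alone the heat shock list split into 5 higher and 5 lower.

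Of 38 tested genes of DNA repair and replication 29 (76.3%, against 27.1% over all tested genes) were downregulated and 1, *mus-8* (0.25), was upregulated, with a median of -0.32. Library totals alone gave 13 lower and 5 higher. The replication clamp gene *pcn* had 164, 146, and 146 CPM at 360 min, against 214, 222, and 224 CPM at 120 min (-0.54 ± 0.05). *rad16* (-0.85) and the UV endonuclease gene *mus-18* (-0.80) fell most. Of 9 tested histone genes 6 (66.7%) fell and none rose, among them *hH2A* (-0.47) and *hH3* (-0.33), a direction that library totals alone turned into a median of 0.01. In the highest group by level 61.1% of genes fell. Of 42 tested chromatin modifiers 20 (47.6%) fell, 3 (7.14%) rose, and 19 were not called, against 27.1% and 29.6% falling and rising over all tested genes. With library totals alone 6 fell and 16 rose.

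Mitochondrial genes did not move together. Of the 10 tested nuclear genes for complexes III to V and cytochrome *c*, 7 (70.0%) were downregulated and none upregulated, against 27.1% downregulated over all tested genes and 61.1% in the highest group by level. With library totals alone 3 were lower and 2 higher. The ATP synthase alpha subunit gene *atp-1* (NCU02514) had 2240, 1910, and 1520 CPM at 360 min, against 3350, 3000, and 3190 CPM at 120 min (-0.75 ± 0.11). Of 30 tested subunits of complex I, 16 (53.3%) were upregulated and 3 downregulated, with a median of 0.29. Over all tested genes 29.6% rose, and in the middle group by level, between 13.1 and 34.6 CPM, 42.7% rose. The summed level of the subunits was nearly the same, 490 to 518 CPM at 360 min (median 491), against 483 to 499 CPM at 120 min (median 486). *nuo24*, with 5.27, 6.34, and 7.31 CPM at 360 min, against 2.48, 2.64, and 2.53 CPM at 120 min, rose most (1.31 ± 0.13), and *acp-1*, the acyl carrier protein, fell by 0.34. Of 24 tested protein-coding genes of the mitochondrial chromosome 9 (37.5%, against 29.6% over all tested genes) were upregulated and none downregulated, but 5 without the third 360 min library, which held the highest value of its stage in 6 of the 9. One of them, NCU16017, had 7.45, 14.6, and 43.1 CPM at 360 min, against 3.67, 5.19, and 5.39 CPM at 120 min, and was not called without that library (log2 fold change 1.20, edgeR adjusted p = 0.063). The share of ribosomal RNA in that library was 11.7%, and its part in this result was not tested. Of 23 tested import components 16 (69.6%) fell and 1, *tob37*, rose (19 and none without the third 360 min library), with *tim50* (-0.67) and *tim44* (-0.54) lowest, a median of -0.22 that became 0.03 with library totals alone. Over all tested genes 27.1% fell, and in the highest group by level 61.1%.

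Of 8 tested glycolytic genes 6 were downregulated and none upregulated, *emp-3* most (-0.73), with a median log2 fold change of -0.28. For comparison, 27.1% of all tested genes fell. In the highest group by level 61.1% fell, with a median of -0.27, close to that of the glycolytic genes. With library totals alone 1 glycolytic gene was lower and 2 were higher. The citric acid cycle list held 4 genes up and 4 down of 17 (23.5% each, against 29.6% and 27.1% over all tested genes, median -0.06). Without the third 360 min library it held 6 up and 4 down (median 0.03). In the fermentation genes 1 library stood out. *adh-1*, an alcohol dehydrogenase gene, had 8.72, 90.7, and 16.2 CPM at 360 min, against 2.51, 5.73, and 9.25 CPM at 120 min. *cfp*, the pyruvate decarboxylase gene, had 46.2, 231, and 63.1 CPM at 360 min, against 36, 39.8, and 46.4 CPM at 120 min. For both genes the second 360 min library was several times higher than the other 360 min libraries, and the stages overlapped. Their log2 fold changes were 2.71 ± 0.70 and 1.47 ± 0.43 with all libraries, and 1.08 and 0.41 without that library, when both were still called. *fdh*, formate dehydrogenase, had 34.3, 31.3, and 38.4 CPM at 360 min, against 5.66, 4.86, and 5.64 CPM at 120 min, with no such library (2.68 ± 0.16). Of 5 genes of trehalose and glycogen 4 (80.0%, against 29.6% over all tested genes) were upregulated, led by *tre-1* (0.74, under 1 CPM at both stages) and the glycogen synthase gene *gsy-1* (0.70).

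Of 22 tested genes of peroxisomes and the Woronin body 14 were upregulated (63.6%, against 29.6% over all tested genes), none was downregulated, and 8 were not called (median 0.29). *hex-1* (NCU08332, chromosome I, 5727235 to 5728917), whose product forms the crystalline core of the Woronin body, had 2060, 2230, and 2000 CPM at 360 min, against 950, 982, and 974 CPM at 120 min (1.12 ± 0.06, edgeR adjusted p = 6.1e-08). It averaged 102 CPM at 15 min and 1550 CPM at 240 min, so it had climbed since germination. The import genes *pex6* (0.61) and *pex14* (0.58) rose with it. Of 10 tested genes for catalases, superoxide dismutases, and glutathione transferases 6 rose and 2 fell. The mitochondrial superoxide dismutase gene *sod-2* had 47.6, 38.7, and 34.8 CPM at 360 min, against 16.9, 17.1, and 16.3 CPM at 120 min (1.27 ± 0.16), and *gst-1* rose by 1.36, while of the catalase genes *cat-3* rose (0.75) and *cat-1* (-0.87) and *cat-2* (-0.91) fell.

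Of 25 tested genes of light responses, the clock, and carotenoids, 9 rose and 5 fell. Under constant white light *vvd* (NCU03967), the blue-light receptor that tunes photoadaptation, had 516, 512, and 586 CPM at 360 min, against 231, 255, and 245 CPM at 120 min (1.14 ± 0.06). The carotenoid synthesis genes *al-1* (0.42), *al-2* (0.31), *al-3* (0.44), and *ylo-1* (0.75) rose, and *cao-2*, whose oxygenase cleaves torulene, fell (-0.54). The clock gene *frq* had 58.6, 55.6, and 54.0 CPM at 360 min, against 78.7, 73.9, and 77.6 CPM at 120 min (-0.45 ± 0.05), and *frh*, whose helicase binds FRQ, fell by 0.73. The conidiation list held 4 genes up and 4 down of 19 (21.1% each, against 29.6% and 27.1% over all tested genes). *con-6* had 9.10, 5.62, and 7.36 CPM at 360 min, against 13.4, 14.6, and 20.6 CPM at 120 min (-1.14 ± 0.16), while *ccg-16* rose by 1.46, *ccg-6* by 0.55, and *ccg-14* by 1.53, or by 0.97 without the second 360 min library, in which it had 53.2 CPM, against 18.7 and 26 CPM in the others. *ccg-1* was called higher (0.76, edgeR adjusted p = 0.046), but not without the third 360 min library, when its log2 fold change was 0.08. The call was also lost without any 1 of the 120 min libraries (0.73, 0.74, and 0.81) and with DESeq2 (0.73). *ada-1*, a transcription factor gene whose loss alters asexual and sexual development, had 32.1, 36.5, and 30.5 CPM at 360 min, against 10.7, 11.5, and 10.8 CPM at 120 min (1.58 ± 0.10). Of 12 tested mating genes 3 (25.0%) rose and 2 (16.7%) fell, against 29.6% and 27.1% over all tested genes. The pheromone precursor gene *mfa-1* rose to 3.41, 3.68, and 4.25 CPM at 360 min, against 0.589, 0.879, and 0.978 CPM at 120 min (2.20 ± 0.19).

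The course over the 4 stages differed between genes with the same net change. *acw-9* averaged 123, 236, 628, and 920 CPM at 15, 120, 240, and 360 min, and *chs-3* 20.4, 53.3, 80.6, and 106 CPM, so that both climbed at each stage. *vvd* averaged 1350, 243, 345, and 538 CPM, and *pma-1* 10900, 3540, 4440, and 4800 CPM, which left both below their level in fresh conidia. *chit-1* averaged 7.76, 1.38, 6.75, and 38.6 CPM. Among the genes that fell, *tef-1* averaged 26400, 38700, 38400, and 27100 CPM and *atp-1* 1970, 3180, 3200, and 1890 CPM, with the fall after 240 min. *ota* averaged 185, 401, 240, and 123 CPM, and *ena-1* 411, 171, 125, and 42.0 CPM.

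**Figure D4:**
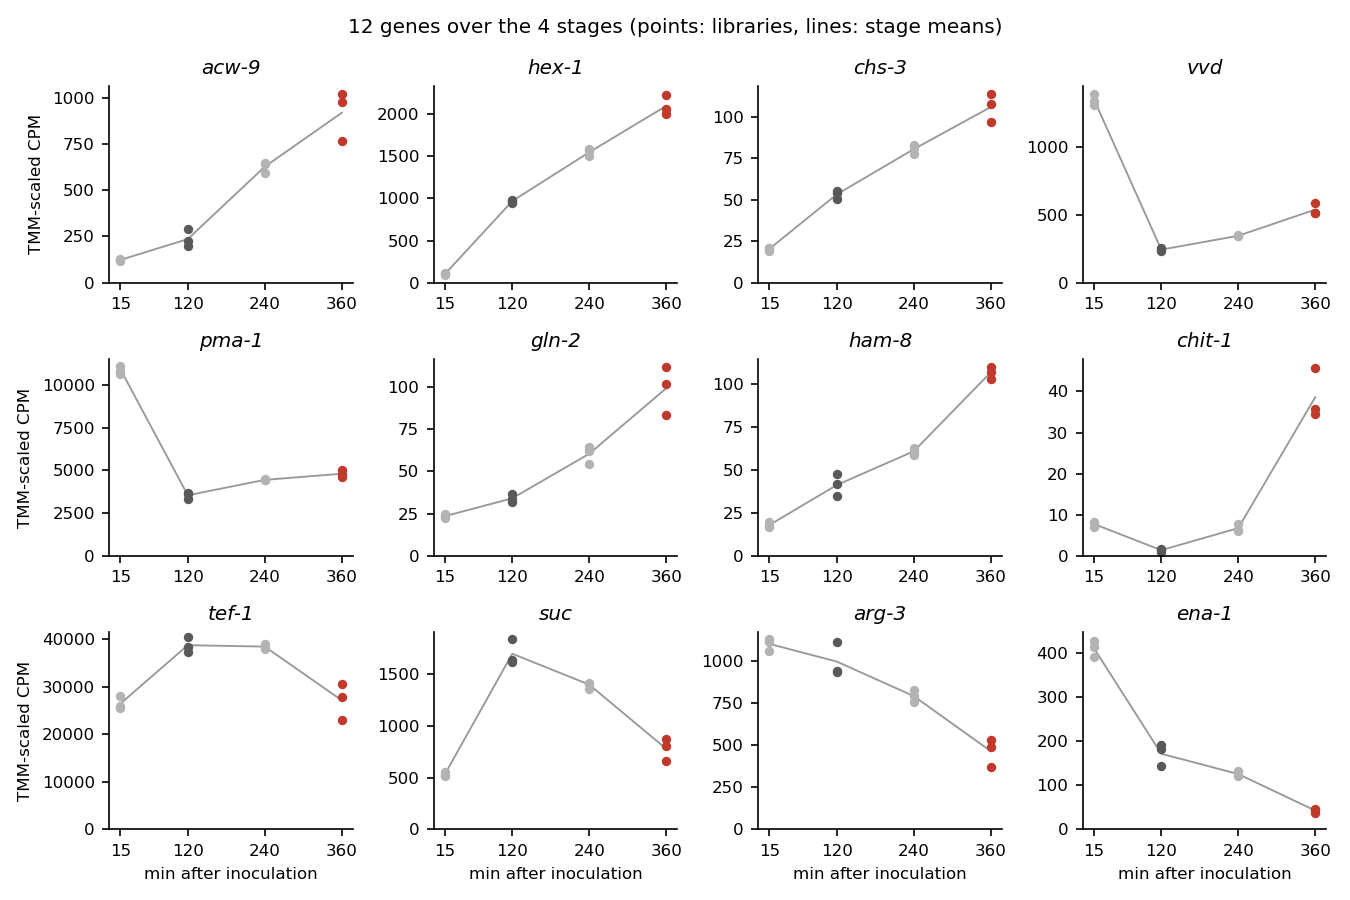
Each panel shows 1 gene over the 4 stages, with minutes after inoculation on the x axis and TMM-scaled CPM on the y axis, points for the 3 libraries of a stage, and a line through the stage means. *acw-9*, *hex-1*, and *chs-3* climb at each stage, *vvd* and *pma-1* stay below their 15 min level of 1350 and 10900 CPM, and *tef-1* and *suc* fall after a peak at 120 to 240 min.

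The 139 tested genes of the 20 predicted secondary metabolite clusters (SMCs), groups of neighbouring genes around a core biosynthetic enzyme, held 35 upregulated genes (25.2%, against 29.6% over all tested genes) and 29 downregulated genes (20.9%, against 27.1%), with a median of 0.01. With library totals alone 59 were higher and 12 lower. SMC no. 18 had the highest median (0.80), with 5 of 10 tested genes upregulated and none downregulated. Its 3 adjoining genes on chromosome VII, 1568960 to 1574995, had the largest changes. NCU12022 had 65.3, 64.6, and 55.7 CPM at 360 min, against 2.95, 6.83, and 14.7 CPM at 120 min (2.91 ± 0.38), and NCU12021 had 81.2, 77.1, and 75.6 CPM at 360 min, against 3.79, 9.60, and 19.5 CPM at 120 min (2.82 ± 0.38). In both genes the 120 min libraries differed about 5-fold from each other, with the third the highest, and all lay below the 360 min libraries. NCU06170 followed with 1.74 ± 0.16. In SMC no. 13, 5 of 9 tested genes rose, among them *gh92-1* (1.09) and *fbp-1* (0.89), and 2 fell, *pabp* and *mrp-7* (-0.45). In SMC no. 1, the phytoene synthase gene *al-2* rose (0.31) and the MAP kinase gene *os-5* fell by 0.24 on the log2 scale, a difference that was 0.00 with library totals alone. Both tested genes of SMC no. 8, *cel-1* (-0.53) and *cel-2* (-0.35) for fatty acid synthase, fell. With library totals alone neither was called (-0.28 and -0.10). SMC no. 9 had 1 tested gene, not called. In SMC no. 20, 1 of 15 tested genes was called. This gene, NCU05766, had no count at 360 min, against 0.0755, 0.0709, and 0.0652 CPM at 120 min, close to the limit of 3 counts, so no fold is given. Elsewhere, the polyketide synthase gene *pks-3* had 6.29, 6.76, and 8.29 CPM at 360 min, against 2.52, 2.95, and 2.17 CPM at 120 min (1.48 ± 0.14), and *ci-1* of SMC no. 16, an ent-kaurene oxidase gene, had 6.24, 5.91, and 5.39 CPM at 360 min, against 17.3, 17.5, and 14.6 CPM at 120 min (-1.49 ± 0.15).

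Among genes known only by an ID, those with at least 10 CPM in the higher stage and no overlap between stages are considered here. NCU02884 (chromosome I, 8809652 to 8811072) had 80.6, 53.3, and 64.2 CPM at 360 min, against 0.906, 1.49, and 2.04 CPM at 120 min (5.47 ± 0.42), and NCU00265 had 19.7, 22.1, and 17.6 CPM at 360 min, against 0.876, 0.794, and 0.757 CPM at 120 min (4.61 ± 0.20). NCU01212 had 21.2, 16.4, and 16.4 CPM at 360 min, against 0, 0.383, and 0.496 CPM at 120 min (5.89 ± 0.71). Among falls under the same conditions NCU05038 was first, with 11.8, 12.3, and 10.4 CPM at 360 min, against 53.6, 55.1, and 45.3 CPM at 120 min (-2.16 ± 0.09). Next were NCU01428 (-1.98), NCU03297 (-1.89), and NCU04583 (-1.83), of which NCU03297 had a 120 min library at 132 CPM beside 2 at 451 and 463 CPM. In 10 places, 3 or more neighbouring tested genes all changed at least 2-fold in 1 direction, 9 upward and 1 downward. The upward run of NCU05498, NCU14176, and *ccg-16* includes a gene, NCU14176, whose stages overlapped and which was high only in the second 360 min library. That library also had by far the highest value of NCU16673, in the upward run with NCU00265 and NCU00267. The values of NCU14176 and NCU16673 are given at the end. The longest run held 4 genes, NCU09953 to NCU09956 on chromosome V, 6033313 to 6041800, with log2 fold changes between 1.20 and 3.11 at low levels (0.649 CPM of NCU09953 at 360 min and 0.0896 CPM at 120 min). The downward run, NCU05039, NCU05038, and NCU05037 on chromosome VI, 3967412 to 3974053, fell by between 1.75 and 2.16 on the log2 scale, though NCU05039 averaged 0.0841 CPM at 360 min and 0.376 CPM at 120 min. Another on chromosome V, 3259332 to 3265413, joined NCU01211, NCU01212, and *sod-2*.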

How the data were processed

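The authors trimmed the reads of stranded, oligo(dT)-selected libraries, mapped them to the OR74A genome (version 12) with HISAT2 (2.1.0), filtered on mapping quality, and deposited 1 table of counts per gene from StringTie (1.3.3b), which are not normalized. These counts are coverage converted to whole reads, so they are estimates, and a read pair may add more than 1 count. The table covers 10592 genes, and 1027 had no count in any library. A deposited table of ratios between stages holds the authors' own comparison and was not used here. The study gives 25°C in the labels and methods, and another temperature for PDA in one of its tables.

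Stages were compared with edgeR (4.0.16, R 4.3.3): TMM factors, filterByExpr, a fit of stage means to the 12 libraries, and the quasi-likelihood test of 360 against 120 min with Benjamini-Hochberg adjustment over the 8118 tested genes (common biological coefficient of variation 0.102). The standard error is the log2 fold change divided by the square root of F. The step was tested on simulated data with 200 changed genes, balanced in direction. Far more genes were called in the real data, so the simulation does not bear on the choice of scaling. DESeq2 (1.42.0), other scalings and filters, a test against a 2-fold change, and fits without 1 library were alternatives. A deeper library has less counting error. No 2 libraries were as alike as repeats of 1 library.

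Symbols and coordinates came from RefSeq's table of assembly NC12, which holds 10590 of the IDs and symbols for 1159 genes but no product names. Lists were therefore built from symbols, and clusters from the study. The members and lists were chosen with earlier results of these data known, and lists are described by counts with no test. The 2 genes whose symbols matched the fusion list by spelling only were taken out after its values were seen. Named genes are the 15 largest rises and falls among called genes with a symbol, no overlap of libraries, and at least 10 CPM in the higher stage, the 5 largest of each sign among IDs without a symbol, the 6 largest gains and losses in CPM, up to 4 called members of a list by size of change, and called genes of the 5 SMCs that the study describes singly. The results of 1 gene group are not reported here. Other list members, *adh-1*, *cfp*, NCU16017, and the genes of runs were named after their values were seen.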

Additional observations from a re-analysis of the deposited data

How the results depend on the processing

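The count of 4603 changed genes stayed within 1.5 times under each alternative except the test against a 2-fold change, which left 190 genes, 172 higher and 18 lower at 360 min. With library totals alone 3834 genes were higher and 999 lower, and *csn-4* (0.02), *csn-3* (0.03), *erg-1* (0.02), and *os-5* (0.00) lost their fall. Lower genes outnumbered higher ones with DESeq2 (2313 higher, 2342 lower) and without the third 360 min library (2281 and 2284). Leaving out 1 library at a time gave 4215 to 4571 changed genes, 2129 to 2319 of them higher and 2055 to 2284 lower. Of 201 called genes among those named or listed, 164 were not called against a 2-fold change and 22 with library totals alone. With 6 libraries only 9 lost the call and 1 was not tested, with at least 1 CPM in 3 libraries 7 were not tested, and under each of the other alternatives at most 8 lost the call.

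Same-numbered libraries of the 2 stages did not deviate together (r = 0.0319, -0.0257, and -0.01), so the numbers were not taken to pair them. A replicate block gave 4523 changed genes, 2352 higher and 2171 lower.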

Other observations

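Kinase genes named *stk*, which the groups above leave out, moved in both directions, with 15 of 48 tested genes higher (31.2%, against 29.6% over all tested genes) and 9 lower (18.8%, against 27.1%) at 360 min (median log2 fold change 0.07). *stk-58* averaged 46.6 CPM at 360 min and 29.7 CPM at 120 min (0.65), *stk-36* rose by 1.35, and *stk-52* averaged 141 CPM at 360 min and 249 CPM at 120 min (-0.82). Phosphate and sulfur genes leaned downward, with 8 of 19 tested genes lower (42.1%, against 27.1% over all tested genes) and 2 higher (10.5%, against 29.6%). Among the lower genes were the phosphate permease genes *pho-5* (-1.01) and *pho-4* (-0.70) and *cys-9* (-0.64) and *cys-16* (-0.53), and library totals alone gave 4 in each direction. Of the nitrate genes, *nit-6*, the nitrite reductase gene, averaged 0.354 CPM at 360 min and 0.0236 CPM at 120 min, which is under the limit of 3 counts, and *nit-3*, the nitrate reductase gene, averaged 1.98 CPM at 360 min and 1.15 CPM at 120 min (0.79). Of the 7 tested COP9 signalosome subunits 1 (14.3%), *csn-6*, rose (0.19) and 2 (28.6%), *csn-3* and *csn-4*, fell (each -0.22). Over all tested genes 29.6% rose and 27.1% fell. With library totals alone the fall of *csn-3* and *csn-4* was lost, while without the third 360 min library 4 subunits fell and 1 rose.

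The second 360 min library had the highest value of its stage in *adh-1*, *cfp*, *ccg-14*, and *aga-1*, and also in NCU16673, with 1.42, 17.9, and 5.42 CPM at 360 min, against 0.196, 0.893, and 0.783 CPM at 120 min, and in NCU14176, with 0.651, 7.35, and 0.931 CPM at 360 min, against 0.695, 0.752, and 0.718 CPM at 120 min. These genes were picked out after their values were seen, and the reason was not tested.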
